A study of Cricetulus griseus with 19 samples.

Results

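Endoplasmic reticulum chaperones and components of the unfolded protein response were followed across long-term cultures of Paradaux cells, a derivative of the Chinese hamster ovary cell line CHO-K1. The members are the transcript targets whose reference record carries 1 of 7 symbols, namely Hspa5, Hyou1, Creld2, Calr, Pdia3, Edem1 and Xbp1. Xbp1 has 2 records, so the set holds 8 of the 46718 targets of the quantification index. Only 527 targets could be given a symbol at all, and 333 of these are protein coding, so other transcripts of the same genes may stand among the unnamed targets.

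Paradaux cells carry an engineered circuit through which a signal that the cells release acts back on the size of their population. RNA was taken from 7 cultures under paradoxical feedback, where the signal feeds into growth as well as death, from 7 cultures under negative feedback, where it limits the population, and from 4 cultures whose growth was uncontrolled. The series also has 1 library of the parental line. Every group is CHO-K1, was grown for 2 days at below 80% confluence before harvest, and contained the inserted construct, which reached 1302 to 2267 CPM (counts scaled to a common library total) in all 19 libraries. The labels give no duration of the long-term culture, no inducer and no statement that the replicates began as separate cultures, so p-values measure the spread between these libraries, which may be technical. The parental line, with 1 library, enters no test of its own.

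Proteins that enter the secretory pathway fold in the endoplasmic reticulum, where chaperones hold unfolded chains, lectins monitor their sugars and disulfide isomerases pair their cysteines. When unfolded chains accumulate, the membrane sensors IRE1, PERK and ATF6 start the unfolded protein response. IRE1 removes a short intron from Xbp1 mRNA, and the spliced message encodes an active transcription factor. PERK slows translation and favours Atf4, while ATF6 is cut in the Golgi by the proteases encoded by Mbtps1 and Mbtps2. Their targets include chaperones such as Hspa5 and degradation factors such as Edem1. CHO cells are a common host for secreted proteins, for which this folding capacity is well known.

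Libraries held 9.91 to 13.2 M estimated counts. The share of counts on targets shorter than 800 nt differed between libraries and is given beside the results because it moved with some members. It was 8.50 to 12.4% in the paradoxical feedback cultures and 12.2 to 13.4% in uncontrolled cultures, with 11.8% in the parental library. Negative feedback cultures 1 and 2 had 14.1 and 13.3%, whereas cultures 3 to 7 had 6.12 to 7.22%. Because these negative feedback libraries stand apart from each other, comparisons that use them are given with and without each set. The sets were seen in these same libraries, so p-values of fits without a set are descriptive and no independent test. The cell type itself could not be checked by markers, since Actb was the only 1 of 13 marker symbols that matched a target. That target lay at 0 to 1.34 CPM, which need not give the level of its gene.

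All 8 member targets passed the filter on low counts. Levels are CPM on library sizes scaled by the trimmed mean of M values (TMM), and tests are edgeR's quasi-likelihood test over 28555 targets, with an adjusted p under 0.05 counted as called. Hspa5, Creld2, Edem1, Calr and Pdia3 had whole-number counts in all 19 libraries, which is what reads assigned without sharing give. Hyou1 had them in 3 libraries and each Xbp1 record in 0, so part of their reads was divided among similar transcripts by the quantifier. In RNA from whole cultures, fewer cells of a type and less RNA per cell cannot be told apart.

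Hspa5 encodes BiP, the Hsp70 chaperone of the endoplasmic reticulum, which also holds the sensors of the unfolded protein response inactive. The paradoxical feedback cultures 1 to 7 were at 1861, 1903, 1405, 2802, 2236, 2674 and 1071 CPM. Negative feedback cultures 1 and 2 were at 11872 and 11149 CPM, and cultures 3 to 7 at 1796, 1768, 1840, 1849 and 1896 CPM. The uncontrolled cultures 1 to 4 were at 11184, 10267, 5290 and 4868 CPM, with the parental library at 3718 CPM. Every paradoxical feedback culture was below every uncontrolled culture and below the parental library, while negative feedback culture 1 lay above all uncontrolled cultures, culture 2 within their range and cultures 3 to 7 below it. The 5 negative feedback cultures at the lower level were close together.

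Hyou1 encodes a large relative of Hsp70 that acts as a nucleotide exchange factor for BiP. It did not follow Hspa5. The lowest, median and highest values were 159.5, 259.0 and 341.6 CPM in paradoxical feedback cultures. In negative feedback cultures 1 and 2 they were 296.2 and 230.5 CPM, and cultures 3 to 7 lay at 538.2 to 634.1 CPM. The uncontrolled cultures 1 to 4 were at 346.2, 250.3, 183.5 and 202.9 CPM, and the parental library at 183.0 CPM. Negative feedback cultures 3 to 7 were thus above all other libraries for Hyou1 and below all uncontrolled cultures for Hspa5.

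Creld2 encodes a disulfide isomerase of the endoplasmic reticulum that is induced by its stress. The paradoxical feedback cultures 1 to 7 were at 132.7, 127.4, 106.1, 218.7, 165.0, 179.4 and 104.7 CPM. Negative feedback cultures 1 and 2 were at 668.9 and 400.2 CPM, and cultures 3 to 7 at 93.05 to 119.8 CPM. The uncontrolled cultures 1 to 4 were at 698.0, 659.5, 298.7 and 315.5 CPM, and the parental library at 230.1 CPM. The libraries split as they did for Hspa5, with uncontrolled cultures 1 and 2 and negative feedback cultures 1 and 2 highest and no overlap between paradoxical feedback and uncontrolled cultures.

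Calr, calreticulin, is the soluble lectin chaperone of the calnexin cycle and a calcium store. It lay at 394.1 to 865.7 CPM in paradoxical feedback cultures, with a median of 619.9 CPM. In negative feedback it was at 938.4 CPM in culture 1 and at 589.1 to 663.8 CPM in the other cultures. The uncontrolled cultures were at 943.2, 815.8, 563.0 and 603.0 CPM, and the parental library at 642.1 CPM. All groups overlapped. Pdia3, the disulfide isomerase that works with calreticulin, spanned 356.8 to 711.4 CPM under paradoxical feedback, 428.8 to 551.2 CPM under negative feedback and 361.7 to 512.1 CPM in uncontrolled cultures, with 485.5 CPM in the parental library. Its groups overlapped as well, and paradoxical feedback cultures held both its highest and its lowest value.

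Edem1 encodes a mannosidase-like protein that directs misfolded glycoproteins to degradation. It was a low target, at 14 to 637 counts per library. The paradoxical feedback cultures 1 to 7 were at 3.56, 5.57, 5.44, 7.26, 2.74, 3.45 and 4.89 CPM. Negative feedback cultures 1 and 2 were at 1.79 and 1.65 CPM, and cultures 3 to 7 at 38.2, 49.2, 40.9, 43.6 and 24.3 CPM. The uncontrolled cultures 1 to 4 were at 1.73, 2.28, 1.11 and 2.79 CPM, and the parental library at 3.27 CPM. Edem1 was high in the negative feedback cultures in which Hspa5 and Creld2 were low, and low in the pair in which they were high.

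**Figure D1:**
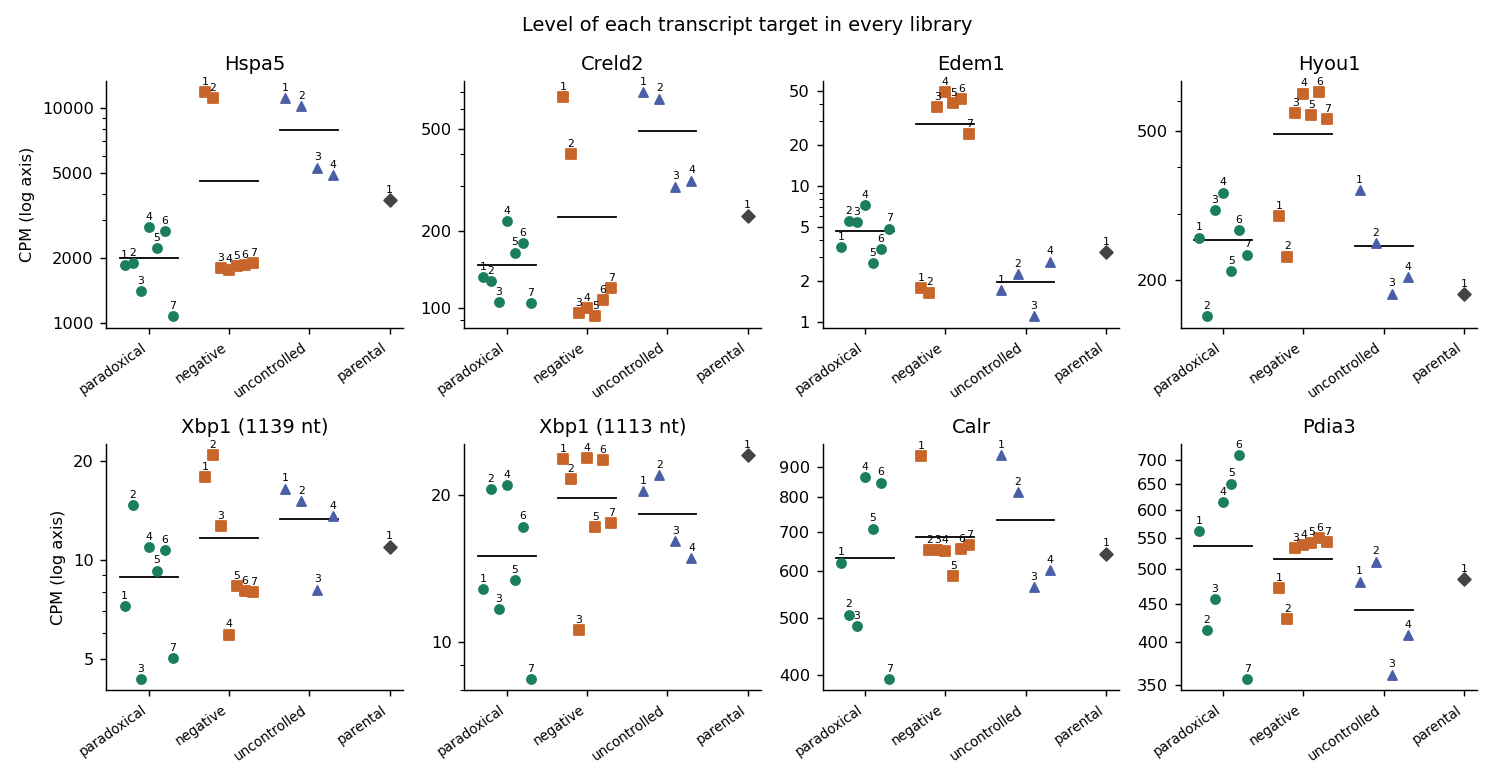
Level of each member target in CPM on a log axis, with 1 point per culture and a line at the mean, by condition (7 paradoxical feedback, 7 negative feedback, 4 uncontrolled and 1 parental library). For Hspa5 and Creld2 every paradoxical feedback point lies below every uncontrolled point, and Edem1 reaches 24.3 to 49.2 CPM in negative feedback cultures 3 to 7 alone.

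Read per length, in TPM (transcript levels corrected for effective length and scaled to a common total), Hspa5 had the highest mean of the 8 targets in each long-term group. In paradoxical feedback cultures it was at 1048 ± 338 TPM (SD, n = 7), with Calr at 708 ± 202 TPM and Pdia3 at 469 ± 89.3 TPM. Creld2 followed at 145 ± 45.2 TPM and Hyou1 at 76.7 ± 21.8 TPM, and both Xbp1 records and Edem1 (3.14 ± 1.32 TPM) were lowest. In negative feedback cultures the same order held down to Hyou1 for the mean levels (Hspa5 2485 ± 2113 TPM, Calr 899 ± 97.1 TPM, Pdia3 545 ± 125 TPM, Creld2 229 ± 178 TPM and Hyou1 181 ± 77.2 TPM; SD, n = 7). Creld2 and Hyou1 there lay within 1 SD of each other. In uncontrolled cultures Creld2 stood above Pdia3, at 472 ± 207 TPM against 382 ± 60.6 TPM (SD, n = 4), also within 1 SD. The mean level of Hspa5 was 4092 ± 1716 TPM there, and that of Calr 809 ± 210 TPM.

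The first comparison asked how these transcripts differed between cultures held by paradoxical feedback and cultures that grew without control. Hspa5 was lower under paradoxical feedback. Creld2 also lay below the uncontrolled cultures in all 7 paradoxical feedback cultures but missed the threshold. For both targets the parental library lay between the groups, below every uncontrolled and above every paradoxical feedback culture. Of the 8 targets 1 was called by edgeR, a member lower under paradoxical feedback, against 6.43% of all tested targets called in either direction and 1.50% called lower. By mean, Hspa5 was at 1993 ± 632 CPM in paradoxical feedback cultures (SD, n = 7) and 7902 ± 3286 CPM in uncontrolled cultures (SD, n = 4). The log2 fold change was -1.99 ± 0.56 (95% interval -3.16 to -0.81, edgeR adjusted p = 0.0431). For this and every other log2 fold change, ± gives the SE of the fit. Creld2 was at 148 ± 41.9 CPM against 492.9 ± 215 CPM, with a fitted log2 fold change of -1.74 ± 0.51 (interval -2.82 to -0.66; edgeR adjusted p = 0.0508). DESeq2 gave an adjusted p of 0.00674 for Creld2 and limma on log2(TPM + 1) gave 0.0265. These tools and limma-voom each called 2 members, Hspa5 and Creld2, beside 16.9% of all tested targets by DESeq2, 9.07% by limma-voom and 8.50% by limma on log2(TPM + 1).

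The other members were not called in that comparison. The log2 fold change was 1.25 ± 0.73 for Edem1 (edgeR adjusted p = 0.290) and 0.05 ± 0.27 for Hyou1 (0.947). For Calr it was -0.21 ± 0.21, with an interval of -0.65 to 0.23, and for Pdia3 0.29 ± 0.17, with an interval of -0.06 to 0.64. These intervals allow changes in either direction. The 8 log2 fold changes had a median of -0.25, against 0.02 over all tested targets and 0.55 over 283 tested protein-coding targets with a symbol. Of the members, 3 were above 0 and 5 below. Groups did not overlap for 2 members, both lower under paradoxical feedback, beside 16.2% of all tested targets without overlap and 8.29% without overlap and lower.

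The Hspa5 call depended on single libraries. Leaving out a single uncontrolled culture, or paradoxical feedback culture 1, 2, 3, 5, 6 or 7, ended it, at log2 fold changes of -2.16 to -1.77 and edgeR adjusted p of 0.0613 to 0.127. With the share of counts on short targets as a covariate Hspa5 was still called, at a smaller log2 fold change of -1.07 (edgeR adjusted p = 0.0458). Creld2 was then at -0.91 (0.0814). The negative feedback sets differ in both that share and Hspa5, so this fit cannot tell the share from the split. In the main fit the negative feedback libraries enter this comparison through the shared estimate of the spread. Without negative feedback cultures 1 and 2, or without cultures 3 to 7, Hspa5 and Creld2 were called lower and Edem1 higher. Of all targets tested without cultures 1 and 2, 7.71% were called lower and 12.3% higher, and without cultures 3 to 7 these were 7.63% and 10.4%. The edgeR adjusted p-values of Hspa5, Creld2 and Edem1 were 7.86e-05, 0.000154 and 0.0116 without cultures 1 and 2 and 0.000829, 0.00165 and 0.0456 without cultures 3 to 7, and each log2 fold change moved by 0.01 or less. With the covariate the Edem1 log2 fold change was -0.35.

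**Figure D2:**
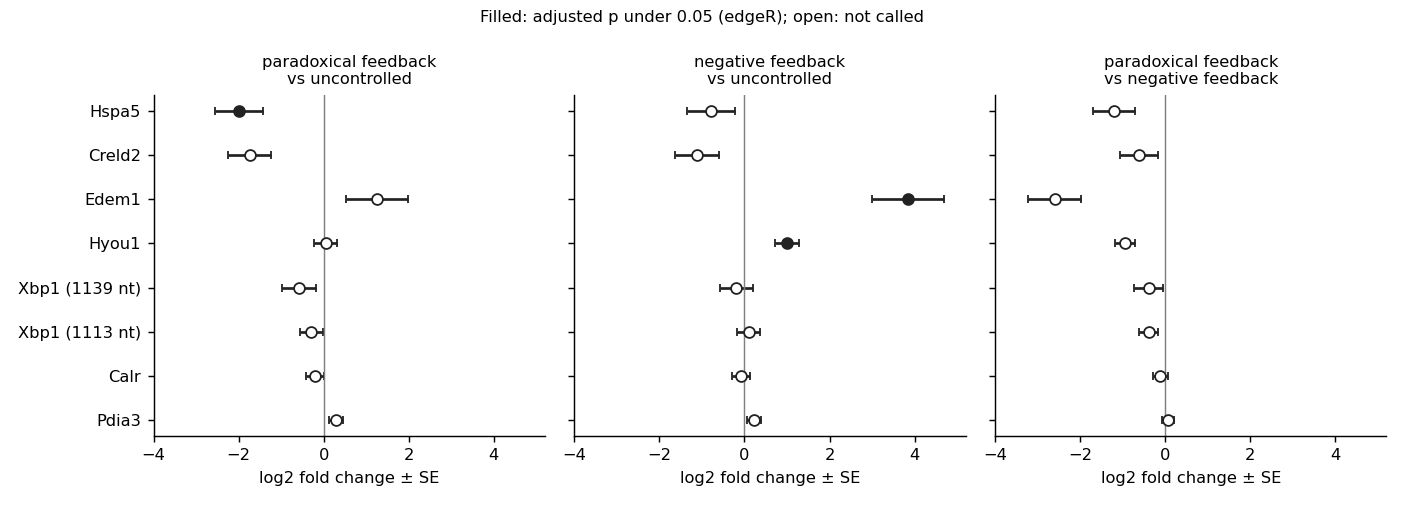
Log2 fold change of each member target, with bars of 1 SE from the edgeR fit, for paradoxical feedback over uncontrolled, negative feedback over uncontrolled and paradoxical over negative feedback. Filled points are called at an adjusted p under 0.05, namely Hspa5 in the first comparison (-1.99) and Edem1 and Hyou1 in the second (3.85 and 1.00).

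Set against uncontrolled growth, negative feedback gave a different list. By edgeR, Edem1 and Hyou1 were higher under negative feedback, while Hspa5 and Creld2 did not pass the test over the 7 cultures. The called members were 2 of 8, both higher, against 9.76% of all tested targets called and 8.65% called higher. Edem1 was at 28.5 ± 19.8 CPM in negative feedback cultures (SD, n = 7) and 1.98 ± 0.723 CPM in uncontrolled cultures (SD, n = 4), and the fitted log2 fold change was 3.85 ± 0.84 (edgeR adjusted p = 0.0236). Hyou1 was at 491 ± 161 CPM against 246 ± 72.6 CPM, with a fitted log2 fold change of 1.00 ± 0.28 (0.0351). Hspa5 had -0.78 ± 0.56 (0.347) and Creld2 -1.12 ± 0.51 (0.147). For Calr and Pdia3 the values were -0.09 ± 0.21 and 0.23 ± 0.17, with adjusted p of 0.785 and 0.359. The tools did not call the same members. DESeq2 called Edem1 and Hyou1, beside 22.6% of all tested targets. Limma-voom called Hyou1 higher and Creld2 lower, with Creld2 at -1.50 (adjusted p = 0.0317) and Edem1 not called at 3.16 (0.134), beside 17.6% of all tested targets. Limma on log2(TPM + 1) called Edem1 and Hyou1 higher and Creld2 lower (0.0410), beside 23.9%. The median over the members was 0.01, beside 0.04 over all tested targets, and 0 members had groups without overlap, beside 3.87% of all tested targets.

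These means join unlike libraries, and the values without each set differ. Without cultures 3 to 7, no member was called, beside 0.0476% of all targets tested, and Hspa5, Creld2, Edem1 and Hyou1 were at log2 fold changes of 0.54, 0.12, -0.20 and 0.10, each with an edgeR adjusted p of 1.00. Without cultures 1 and 2, all 4 were called, 4 of 8 members beside 40.4% of all targets tested, a share near that background. Hspa5 was then at -2.13 (3.47e-05) and Creld2 at -2.27 (1.36e-05), while Edem1 was at 4.29 (8.99e-07) and Hyou1 at 1.22 (0.000307). These members differ between the sets themselves, so the small p-values follow in part from the split. Cultures 3 to 7 are also those with the lowest share of counts on short targets, so a fit cannot tell that share from the split. With the share as a covariate Edem1 was at 0.55 (0.903) and Hyou1 at 0.32 (0.923). Both calls were also lost when any 1 uncontrolled culture was left out, with adjusted p of 0.0525 to 0.0774 for Edem1. For Hyou1, leaving out any 1 of negative feedback cultures 3 to 7 lost the call too, and its adjusted p ran from 0.0614 to 0.108.

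Compared directly with negative feedback, paradoxical feedback gave no called member. By edgeR 0 of 8 passed, with 3 at an unadjusted p under 0.05, while DESeq2 called 2, Edem1 and Hyou1, both lower under paradoxical feedback, and limma-voom called 0. Of all tested targets 0.270% were called by edgeR, 17.6% had an unadjusted p under 0.05, 6.30% were called by DESeq2 and 1.04% by limma-voom. Edem1 averaged 4.70 ± 1.56 CPM under paradoxical feedback and 28.5 ± 19.8 CPM under negative feedback (SD, n = 7 each), with a fitted log2 fold change of -2.60 ± 0.62 (edgeR adjusted p = 0.0722). Hyou1 averaged 255 ± 60.5 CPM and 491 ± 161 CPM, with a fitted log2 fold change of -0.95 ± 0.23 (0.0770). Hspa5 had -1.21 ± 0.49 (0.218) and Creld2 -0.62 ± 0.45 (0.557). Of the 8 log2 fold changes 7 were below 0, and their median was -0.50, against -0.06 over all tested targets.

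Here too the direction for Hspa5, Creld2 and Edem1 turned with the negative feedback libraries. Against negative feedback cultures 1 and 2 alone, that is without cultures 3 to 7, Hspa5 was at -2.52 (edgeR adjusted p = 0.00186), Creld2 at -1.85 (0.00735), Edem1 at 1.46 (0.118) and Hyou1 at -0.04 (0.959). Against cultures 3 to 7 alone, Hspa5 was at 0.13 (0.773) and Creld2 at 0.52 (0.137), while Edem1 was at -3.05 (1.63e-05) and Hyou1 at -1.19 (0.00038). In each of these fits 2 members were called, beside 8.99% of all targets tested without cultures 3 to 7 and 20.9% without cultures 1 and 2. Paradoxical feedback cultures thus had Hspa5 levels around those of negative feedback cultures 3 to 7 and below those of cultures 1 and 2, and their Edem1 levels lay between those of both sets. With the share on short targets as a covariate, Hspa5 was called at -1.18 (0.0160), in a fit that again cannot tell the share from the split. All comparisons share libraries with each other, so their values are given side by side and were not correlated.

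**Figure D3:**
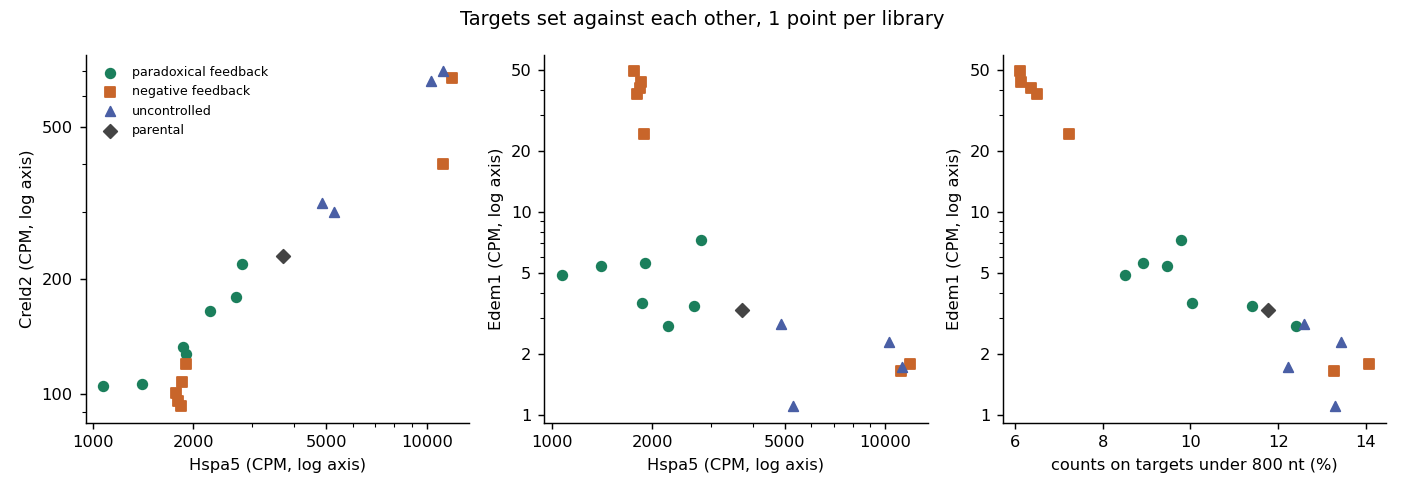
Creld2 and Edem1 against Hspa5, in CPM on log axes, and Edem1 against the percentage of counts on targets under 800 nt, with 1 point per library marked by condition. Negative feedback cultures 1 and 2 lie with the uncontrolled cultures at high Hspa5. Cultures 3 to 7, at 1768 to 1896 CPM, lie within the paradoxical feedback range of Hspa5 and stand apart by Edem1.

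Members also differed in how much they varied within a condition. Over 16495 targets whose mean log2 CPM reached 1, the median within-group SD on the log2 CPM scale was 0.46 in paradoxical feedback cultures, 0.64 in negative feedback cultures and 0.30 in uncontrolled cultures. Hspa5 had SDs of 0.50, 1.29 and 0.63 and Creld2 of 0.40, 1.16 and 0.66, in the same order. Edem1 had 0.47, 2.14 and 0.52. Calr and Pdia3 were the steadier targets under negative feedback, at 0.21 and 0.14, and had 0.43 and 0.37 under paradoxical feedback. Uncontrolled cultures 1 and 2 were above cultures 3 and 4 for Hspa5, Creld2, Hyou1, Calr and Pdia3. Their shares of counts on short targets were 12.2 and 13.4% in cultures 1 and 2 and 13.3 and 12.6% in cultures 3 and 4, and the part of that share in this split was not tested.

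Within the 7 paradoxical feedback cultures, several chaperones were high or low in the same cultures. Cultures 4 and 6 were the highest and cultures 3 and 7 the lowest for Hspa5 and Calr. Of 28 pairs of member targets, 21 had a correlation above 0 on the log2 CPM scale, and 4 had an adjusted p under 0.05 by exact permutation, adjusted over 44 relations that include library total and short-target share. Hspa5 and Calr had r = 0.96 (exact p = 0.000595, adjusted 0.0262) and rho = 0.96 (exact p = 0.00278), and r was 0.91 without the 2 cultures farthest from the median. Creld2 and Calr had r = 0.95 (exact p = 0.00179, adjusted 0.0291) and rho = 1.00 (exact p = 0.000397), with r = 0.92 without the farthest 2. The other pairs that passed on r were Hspa5 with Creld2 and Calr with Pdia3.

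Hspa5 with Creld2 had r = 0.94 (exact p = 0.00198, adjusted 0.0291), rho = 0.96 (exact p = 0.00278) and r = 0.98 without the farthest 2. Calr with Pdia3 had r = 0.95 (exact p = 0.00298, adjusted 0.0327), rho = 0.86 (exact p = 0.0238, adjusted 0.131) and r = 0.97 without the farthest 2, so the rank correlation did not pass. The rank correlations of the other 3 pairs had adjusted p of 0.0175 to 0.0407. Hspa5 also had r = 0.87 with Pdia3 (exact p = 0.0111, adjusted 0.0711), which did not pass. Nor did its r of 0.76 with the longer Xbp1 record (exact p = 0.0466, adjusted 0.205) and 0.84 with the shorter (exact p = 0.0198, adjusted 0.109). Without the farthest 2 cultures these were 0.78, 0.68 and 0.50. Relations of Hspa5 with Edem1 and Hyou1 were weaker. Hspa5 had r = -0.12 with Edem1 (exact p = 0.801, adjusted 0.952; rho = 0.04, exact p = 0.963) and r = 0.19 with Hyou1 (exact p = 0.681, adjusted 0.856; rho = 0.29, exact p = 0.556), and without the farthest 2 cultures these were -0.68 and -0.21. The share of counts on short targets moved with some of these levels. Its r was 0.86 with Pdia3 (exact p = 0.0113, adjusted 0.0711; rho = 0.93, exact p = 0.00675), 0.63 with Hspa5 (exact p = 0.125, adjusted 0.344; rho = 0.61, exact p = 0.167) and -0.75 with Edem1 (exact p = 0.0520, adjusted 0.208; rho = -0.68, exact p = 0.110). Without the farthest 2 cultures r was 0.73, 0.69 and -0.80. Its r was 0.70 with Calr (exact p = 0.0837, adjusted 0.283, rho = 0.71) and 0.58 with Creld2 (exact p = 0.18, adjusted 0.439, rho = 0.71). Without the farthest 2 cultures these were 0.83 and 0.88. Its r was 0.06 with Hyou1, and 0.28 and 0.19 with the longer and shorter Xbp1 records. Its part in the relations between members was not tested.

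**Figure D4:**
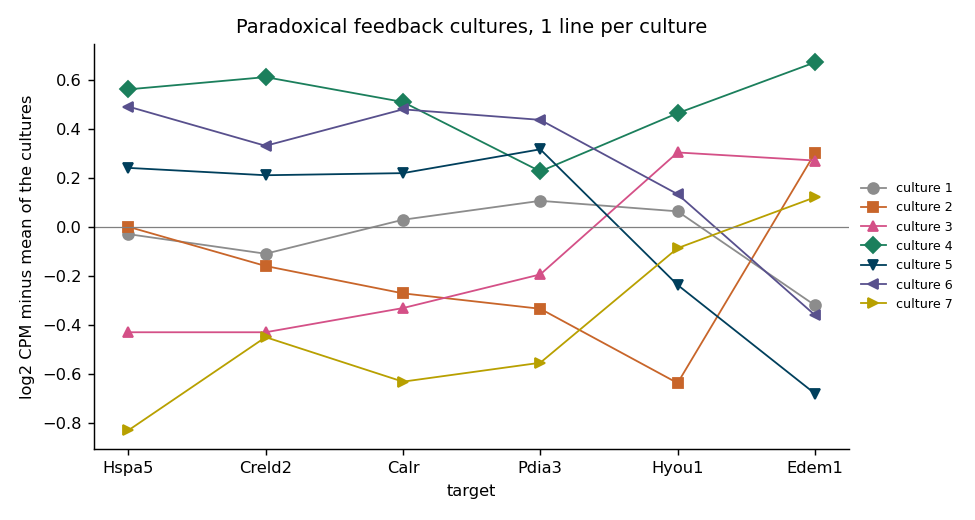
Log2 CPM of Hspa5, Creld2, Calr, Pdia3, Hyou1 and Edem1 in the 7 paradoxical feedback cultures, as the difference from the mean over those cultures, with 1 line per culture. The lines keep nearly the same order across Hspa5, Creld2 and Calr and cross at Hyou1 and Edem1.

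Xbp1 encodes the transcription factor that IRE1 activates by splicing. Its 2 records are 1139 and 1113 nt long. They differ by 26 nt, which is the known length of the intron that IRE1 removes. Whether the shorter record is the spliced form could not be checked, because record sequences were not used here. The summed count of both was whole in all 19 libraries although neither single count was, so their shared reads were divided between these records alone. Both records together held 168 to 467 counts per library, which makes the division imprecise.

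The longer record was at 4.35 to 14.8 CPM under paradoxical feedback, 5.94 to 20.9 CPM under negative feedback and 8.15 to 16.5 CPM in uncontrolled cultures, with 11.0 CPM in the parental library. The shorter was at 8.42 to 21.0 CPM, 10.6 to 23.9 CPM and 14.9 to 22.0 CPM in the same order, and 24.2 CPM in the parental library. The long-term groups overlapped in both, and the parental library was above all of them for the shorter record. Log2 fold changes for the longer record were -0.58 ± 0.39 for paradoxical feedback and -0.19 ± 0.39 for negative feedback over uncontrolled, and for the shorter -0.29 ± 0.27 and 0.10 ± 0.27. The edgeR adjusted p-values ran from 0.366 to 0.819. Between paradoxical and negative feedback both were at -0.39, with SEs of 0.34 and 0.23. Without negative feedback cultures 3 to 7 the longer and shorter records were at 0.54 and 0.31 over uncontrolled and at -1.11 and -0.58 for paradoxical over negative feedback. Without cultures 1 and 2 they were at -0.65 and -0.00, and at 0.05 and -0.30. None of these was called. Summed over both records, paradoxical feedback cultures held 24.0 ± 8.15 CPM of Xbp1 and negative feedback cultures 31.4 ± 7.81 CPM (SD, n = 7 each), and uncontrolled cultures held 31.7 ± 6.39 CPM (SD, n = 4). Its log2 fold changes were -0.40 ± 0.26, -0.01 ± 0.26 and -0.39 ± 0.22, with edgeR adjusted p of 0.340, 0.983 and 0.404 for the comparisons in the order given above. Negative feedback over uncontrolled was at 0.41 ± 0.35 without cultures 3 to 7 and -0.24 ± 0.26 without cultures 1 and 2, and paradoxical over negative feedback at -0.80 ± 0.31 and -0.18 ± 0.22, again with no call.

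The share of Xbp1 counts on the longer record addressed whether the balance of the records moved with the condition. It was 36.5 ± 4.93% under paradoxical and 36.6 ± 12.7% under negative feedback (SD, n = 7 each), and uncontrolled cultures had 41.7 ± 6.22% (SD, n = 4), with 31.3% in the parental library. No difference passed. By exact two-sided permutation test, paradoxical feedback differed from uncontrolled by -5.19 percentage points (p = 0.167, adjusted 0.500). Negative feedback differed from uncontrolled by -5.14 points (exact p = 0.470, adjusted 0.705) and paradoxical from negative feedback by -0.0457 points (exact p = 0.993). Without negative feedback cultures 3 to 7, negative feedback differed from uncontrolled by 4.34 points (exact p = 0.467, where 0.067 is the smallest possible) and paradoxical from negative feedback by -9.53 points (exact p = 0.0556). Without cultures 1 and 2 these differences were -8.93 points (exact p = 0.262) and 3.75 points (exact p = 0.513). The widest spread was among negative feedback cultures, where the share was 54.6% in culture 3 and 19.9% in culture 4. The other cultures had 43.0 and 49.1% in cultures 1 and 2 and 25.5 to 32.7% in cultures 5 to 7. Cultures 3 and 4 were alike in Hspa5, Creld2 and Edem1.

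**Figure D5:**
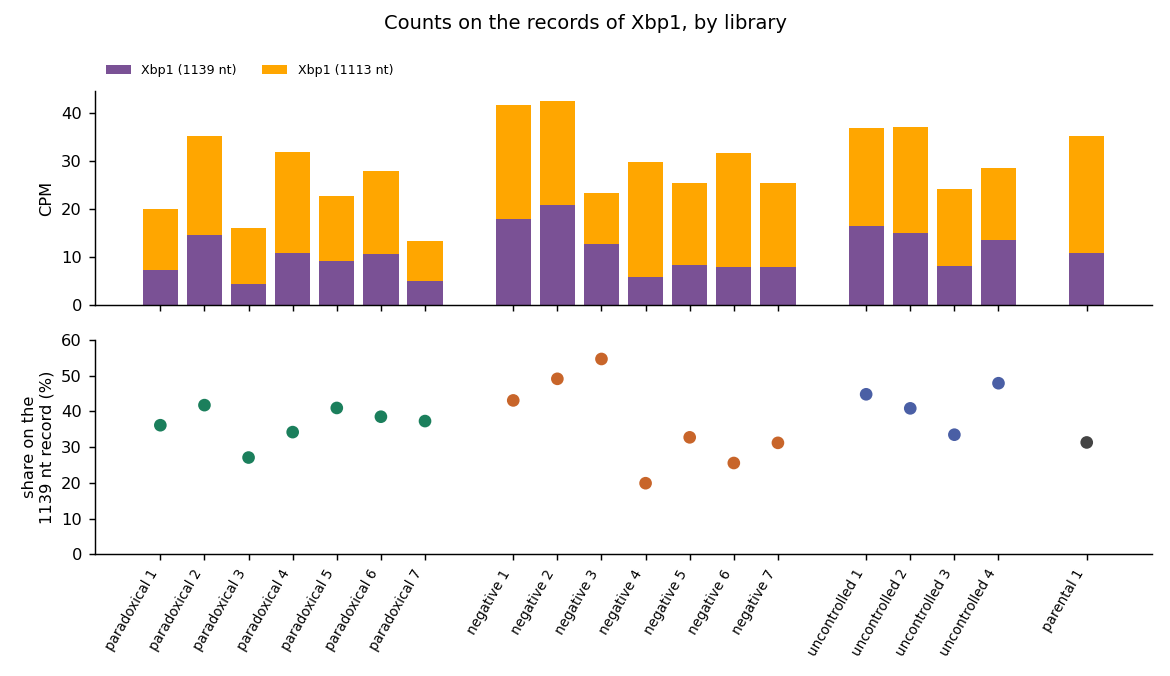
Xbp1 by library and condition, as stacked bars of the CPM of both records above and as points for the percentage of counts on the longer, 1139-nt record below. The 3 long-term groups overlap in both panels, and the share spans 19.9 to 54.6% among the negative feedback cultures.

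Further genes of folding, degradation and the stress response were read from a list of 101 symbols. Names limited this reading, since 9 matched a target and 8 were tested. For paradoxical feedback over uncontrolled, edgeR called 0 of 8, with 3 at an unadjusted p under 0.05, and DESeq2, limma-voom and limma on log2(TPM + 1) each called 1, Selenos, as lower. Canx, at 0 in every library of both groups, was among the 8 and could not be called here. Of all tested targets 25.8% had an unadjusted p under 0.05 and 6.43% were called by edgeR. Selenos encodes a selenoprotein of the degradation machinery in the endoplasmic reticulum membrane. It was at 37.7 ± 6.11 CPM under paradoxical feedback (SD, n = 7) and 146 ± 50.6 CPM in uncontrolled cultures (SD, n = 4), and the fitted log2 fold change was -1.95 ± 0.58 (edgeR adjusted p = 0.0534). Atf4, the transcription factor downstream of PERK and a target with shared reads, was at 139 ± 47.7 CPM against 425 ± 65.6 CPM, with a fitted log2 fold change of -1.61 ± 0.76 (0.191). Bax, a mitochondrial effector of cell death, had -0.86 ± 0.36 (0.144). Without negative feedback cultures 1 and 2, or without cultures 3 to 7, edgeR called Selenos, Atf4 and Bax lower, beside the 7.71% and 7.63% of all targets given above. For Selenos, Atf4 and Bax the groups did not overlap, as for 8.29% of all tested targets in that direction. P4hb, a protein disulfide isomerase, had 0.10 ± 0.20 (0.807).

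Under negative feedback, edgeR called 1 of the 8 as higher than in uncontrolled cultures, beside 8.65% of all tested targets called higher, and 4 had an unadjusted p under 0.05, beside 31.2%. This was Mbtps2, the second ATF6 protease and a target with shared reads (adjusted p = 0.0329). It was at 0.0893 and 0.389 CPM in negative feedback cultures 1 and 2, within the 0 to 0.423 CPM of uncontrolled cultures, and at 2.43 to 9.90 CPM in cultures 3 to 7. The uncontrolled mean, 0.147 CPM, lies below a floor of 3 counts per library (0.255 CPM), so the fitted log2 fold change of 4.86 ± 1.34 is no exact size. Its partner Mbtps1 had 0.58 ± 0.18 (0.0522), at 97.9 and 92.7 CPM in cultures 1 and 2 and 164.0 to 188.9 CPM in cultures 3 to 7. Other tools called more of the list. DESeq2 called Canx, Mbtps1 and Mbtps2 higher, limma-voom called Mbtps2 higher and Atf4, Bax and Selenos lower, and limma on log2(TPM + 1) called all of these, 3 higher and 3 lower. The shares over all tested targets were 22.6%, 17.6% and 23.9% for these tools in the same order. Without cultures 3 to 7 edgeR called 0 of the 7 that were then tested, and without cultures 1 and 2 it called 7 of 8, 3 higher and 4 lower, beside 40.4% of all targets tested. Canx, the membrane-bound lectin partner of calreticulin, was at 0 in every paradoxical feedback, uncontrolled and parental library and in negative feedback cultures 1, 2 and 7. In negative feedback cultures 3 to 6 it was at 31.9 to 46.8 CPM. Its counts in cultures 3 to 6 were not whole numbers, so these values include shared reads. Its negative feedback mean was at least 86.3-fold higher than a floor of 3 counts per library in uncontrolled cultures. That mean joins cultures 3 to 6 with cultures at 0, and a single record near 0 need not give the level of its gene. Canx passed the filter on low counts only with cultures 3 to 7 included, so its fold and its calls are no independent result. Atf4 split the negative feedback cultures as Hspa5 did, at 501.5 and 395.7 CPM in cultures 1 and 2 and 21.7 to 46.3 CPM in cultures 3 to 7. Between paradoxical and negative feedback edgeR called 0 of the 8, with 4 at an unadjusted p under 0.05, DESeq2 called 2, Canx and Mbtps2, both lower, and limma-voom called 0. Over all tested targets these shares were 0.270%, 17.6%, 6.30% and 1.04%. Without cultures 3 to 7 edgeR called 3 of 7, Atf4, Bax and Selenos, as lower under paradoxical feedback (beside 8.99%). Without cultures 1 and 2 it called 7 of 8, with these 3 and Dpagt1 higher (beside 20.9%). Median log2 fold changes of the 8 were 0.04, -0.17 and -0.23 for the comparisons in the order above, against 0.02, 0.04 and -0.06 over all tested targets. The first counts Canx at 0.00, since it had no counts in either group. The other medians were the same with Canx at its bound. All these medians were 0.09, 0.08 and 0.00 without negative feedback cultures 3 to 7 and 0.03, -0.27 and 0.35 without cultures 1 and 2.

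The genes whose pattern was most like each member were taken from 233 other protein-coding targets with a symbol, by Pearson correlation of log2 CPM over the 19 libraries. These libraries fall into sets and share their cell line and index, so r describes this table alone. Selenos was nearest to Hspa5 and to Creld2, at 0.96 and 0.98. Gmds, which takes part in making GDP-fucose, followed Hspa5 at 0.92 and Slc3a2, the heavy chain of amino acid transporters, at 0.91, while Creld2 was followed by Selenom at 0.94 and Gmds at 0.92. The longer Xbp1 record was also nearest to Selenos, at 0.72, and the shorter to Elk3, at 0.59. Edem1 was nearest to Gna13, Ercc4 and Glg1, at 0.99, 0.98 and 0.97, and Hyou1 to Acaca, Pcyt1a and Sec22b, at 0.88, 0.87 and 0.86. Calr was nearest to Gmds at 0.64 and Pdia3 to Cenpb at 0.69. The nearest genes of Hspa5 and Creld2 were thus different from those of Edem1 and Hyou1.

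Record length was a property that members did not share. Edem1, Calr, Pdia3 and the shorter Xbp1 record had a length that is a multiple of 3, as records of coding sequence alone have, and the other members did not. Among tested protein-coding targets with a symbol, the 132 with such a length had median log2 fold changes of 0.70 for paradoxical feedback and 0.84 for negative feedback over uncontrolled, and the rest had 0.37 and 0.27. Over the members, length and direction went together in part, and the part of record length was not tested. For negative feedback over uncontrolled, Edem1, Calr, Pdia3 and the shorter Xbp1 record were at 3.85, -0.09, 0.23 and 0.10. Hspa5, Creld2, Hyou1 and the longer Xbp1 record were at -0.78, -1.12, 1.00 and -0.19 there. For paradoxical feedback over uncontrolled, the same targets were at 1.25, -0.21, 0.29 and -0.29, against -1.99, -1.74, 0.05 and -0.58. Edem1, called higher under negative feedback, was among the 132, while Hyou1, also called higher there, was not. Hspa5 and Creld2, with fold changes below 0, were outside the 132, and the shorter Xbp1 record, at -0.29 for paradoxical feedback over uncontrolled, was among them. Calr and Pdia3, at -0.21 and 0.29 for paradoxical feedback over uncontrolled, lay below the median of the 132.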

How the data were processed

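PolyA RNA of 19 cultures was measured in bulk. Per the submitters' processing notes, reads passed Trim Galore and kallisto (no version or index build is stated). For each transcript target the deposited tables hold the authors' estimated counts, which kallisto divides among similar transcripts, and TPM, which divides them by effective length. Symbols came from the RefSeq gene table for CriGri-PICRH-1.0 by record accession, with 527 targets matched. No genome, promoter or protein sequence was used here.

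Estimated counts were rounded, filtered with filterByExpr (28555 targets left), scaled by TMM and tested by edgeR's quasi-likelihood method (edgeR 4.0.16, R 4.3.3), with all 19 libraries in 1 fit and 1 coefficient per condition. The Benjamini-Hochberg adjustment covered every tested target. Log2 CPM used a prior count of 2. DESeq2 1.42.0, limma-voom and limma 3.58.1 on log2(TPM + 1) were alternatives. The steps were tested on simulated data. The count of a single target was called whole within 1e-06, and the summed Xbp1 count within a wider tolerance. The floor of 3 counts per library covers counting error only. No pair of replicate libraries was alike within sampling noise, since chi-square per degree of freedom was at least 17.65.

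Groups and replicate numbers came from the labels. Members and gene lists were chosen with earlier results of these data known. The genes named are all members, the pathway genes called by edgeR or fixed by role, and for each member the 3 named targets with the highest correlation, of which the first or all are printed. Selenos, Bax and P4hb were named after their values were seen.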

Additional observations from a re-analysis of the deposited data

Results flagged for a closer look

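Of 27 groups of 4 or more libraries, 1 held a library far from the others. Calr was highest in negative feedback culture 1, at 938.4 CPM, and the gap to the next library was 0.786 of the range of that group, against a critical value of 0.568 for 7 libraries. Chance flags about 1 in 20 groups. The same culture was also the highest negative feedback library for Hspa5 and Creld2 and had the largest share of counts on short targets, 14.1%.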

How the results depend on the processing

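Calls depended on the libraries, tool and settings used. Without either negative feedback set, members' log2 fold changes for paradoxical feedback over uncontrolled moved little. In the other comparisons the log2 fold changes themselves moved, and several changed sign. Of the alternative values of the members' log2 fold changes, 602 kept direction and side of the threshold, 34 lost and 31 gained a call, and 29 changed sign. Causes were not tested. Depth limits Edem1 and Xbp1 most, and no scaling moved the median of all targets by more than 0.09 on the log2 scale.

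Replicate numbers gave no clear pairing of the libraries. Same-number correlations ran from -0.25 to 0.17, with 3 of 15 over 0.1. Correlations between different numbers ran from -0.28 to 0.37, with 17 of 90 over 0.1. Of 18 libraries, 6 correlated best with their own number, and the number expected by chance was not computed. With the replicate block, targets called were 3, 4 and 0 and members 0 in each comparison, with Hspa5 at -1.48, Hyou1 at -0.10 for paradoxical feedback over uncontrolled, and Edem1 at 3.35 and Hyou1 at 0.82 for negative feedback.

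For paradoxical feedback over uncontrolled, targets called were 1835, with 4838 by DESeq2, 4956 with only the groups compared, 1145 with the short-target covariate, 4926 without negative feedback cultures 3 to 7 and 5675 without cultures 1 and 2. Higher and lower calls were 905 and 521 by library size alone, 1082 and 1507 by limma-voom and 984 and 1444 on TPM, against 1408 and 427. Members called were 2 with DESeq2 size factors, library size alone, DESeq2, limma-voom or TPM, 0 without a filter, and 3 with only the groups compared or without either set. Hyou1 was at -0.01 with DESeq2 size factors and DESeq2, -0.06 by library size and -0.32 with the covariate, which put Edem1 at -0.35.

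For negative feedback over uncontrolled, targets called were 2787, with 6451 by DESeq2, 5039 by limma-voom, 6811 on TPM, 10 with only the groups compared, 6 with the covariate, and 13 and 11460 without cultures 3 to 7 and 1 and 2. Limma-voom gave 1637 higher and 3402 lower, and TPM 4264 and 2547, against 2470 and 317. Members called were 1 by library size, 0 with only the groups compared, with the covariate or without cultures 3 to 7, and 4 without cultures 1 and 2. The covariate gave Hspa5 0.12, the longer Xbp1 record 0.32 and Calr 0.17, and TPM gave Calr 0.18. Without cultures 3 to 7, Hspa5 was at 0.54, Creld2 at 0.12, Edem1 at -0.20, the longer Xbp1 record at 0.54 and Calr at 0.12, and without cultures 1 and 2 the shorter Xbp1 record was at -0.00.

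For paradoxical over negative feedback, targets called were 77, with 11 by DESeq2 size factors, 42 by library size, 2 without a filter, 1798 by DESeq2, 297 by limma-voom, 31 on TPM, 0 with only the groups compared, 697 with the covariate, and 2454 and 5937 without cultures 3 to 7 and 1 and 2. Members called were 2 by DESeq2 and without either set, and 1 with the covariate. Pdia3 was at -0.00 with DESeq2 size factors and DESeq2, -0.20 on TPM and -0.01 without cultures 1 and 2, where Hspa5 was at 0.13, Creld2 at 0.52 and the longer Xbp1 record at 0.05. Edem1 was at 1.46 without cultures 3 to 7.

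Leaving out 1 library at a time gave 127 to 3204, 7 to 6938 and 0 to 989 targets called and 0 to 2, 0 to 3 and 0 to 2 members. Without cultures 3 to 7, summed Xbp1 for negative feedback over uncontrolled was at 0.41 and the Xbp1 share difference at 4.34 points, and without cultures 1 and 2 the share difference of paradoxical from negative feedback was 3.75 points, all chosen after seeing the data. With 1 library left out, differences in Xbp1 share ran from -7.94 to -3.14, -8.15 to -2.36 and -2.83 to 2.96 points. Hyou1 ran from -0.07 to 0.26 in the first comparison, Calr from -0.20 to 0.05 in the second and Pdia3 from -0.02 to 0.14 in the third. For paradoxical feedback over uncontrolled, Hspa5 stayed called in 17 of 29 alternatives and Creld2 was called in 12. For negative feedback over uncontrolled, Edem1 stayed called in 20 of 29 and Hyou1 in 15.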
